A study of Mus musculus with 6 samples.

Results

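Homeostatic microglia are commonly described by a small set of genes, not all of which are particular to microglia among macrophages. The 9 genes described here were chosen by name from the deposited table of read counts, and they are P2ry12, Tmem119, Cx3cr1, Sall1, Aif1, Mertk, Gpr34, Mef2c and Siglech. Each name matched 1 gene, so that the set holds 9 of the 54532 genes of the table. The cells were N9 microglia, an immortalized line derived from mouse brain, grown in RPMI medium with fetal bovine serum. RNA-seq was done on 3 libraries of untreated (control) cells and 3 libraries of cells given lipopolysaccharide (LPS), the endotoxin of Gram-negative bacteria, at 1 µg/ml for 6 h. Both groups are the same line in culture without neurons or astrocytes, so that the untreated libraries show what a microglial line keeps of these genes and the LPS libraries show how they move in acute inflammation. The labels do not say that the libraries came from separate cultures, and p-values then measure the spread between these libraries, which may be technical.

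In the brain, microglia keep their identity through signals from neighbouring cells, among them transforming growth factor beta and the ligands of the CSF1 receptor, and through transcription factors such as Sall1, Mef2c and PU.1. The receptors of the set let resting microglia sense their surroundings: P2ry12 binds ADP, Cx3cr1 binds the neuronal chemokine fractalkine, Gpr34 binds lysophosphatidylserine and Mertk takes up dying cells. Microglia taken out of the brain are known to lose much of this program, and inflammatory stimuli are known to lower it further in vivo.

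The 6 libraries held between 16363767 and 17956772 reads on genes. Control replicates 2 and 3 stood apart in that they held reads of hepatocyte genes, 257 and 466 reads over the 11 genes of a hepatocyte list found in the table, against 4 in control replicate 1 and between 4 and 9 in the LPS libraries. Alb and Apoa1 had the most reads when summed over the libraries, with 155 and 14 reads in control replicate 2 and 292 and 41 in control replicate 3. The part of these reads in any result was not tested, and each log2 fold change of a tested identity gene is also given without these libraries. Such a fit sets control replicate 1 alone against the 3 LPS libraries, its spread comes from the LPS libraries, and the lone control is assumed to vary like them.

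Of the 9 genes, 2 fell with LPS, 2 were tested and not called, and 5 were near or at 0 in every library. Over all tested genes, 15.7% were called lower with LPS and 34.3% were called in either direction. Mef2c and Mertk fell, with log2 fold changes of -0.89 and -1.30. Tmem119 and Cx3cr1 had log2 fold changes of -0.06 and -0.01. Aif1, P2ry12, Gpr34, Sall1 and Siglech had at most 9 reads in any library, although the line is labelled as microglia. In the plot of reads per library Aif1 lies above a line at 3 reads, the number that a count of 0 leaves possible, P2ry12 lies on or above it, and Sall1 and Siglech lie under it.

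**Figure D1:**
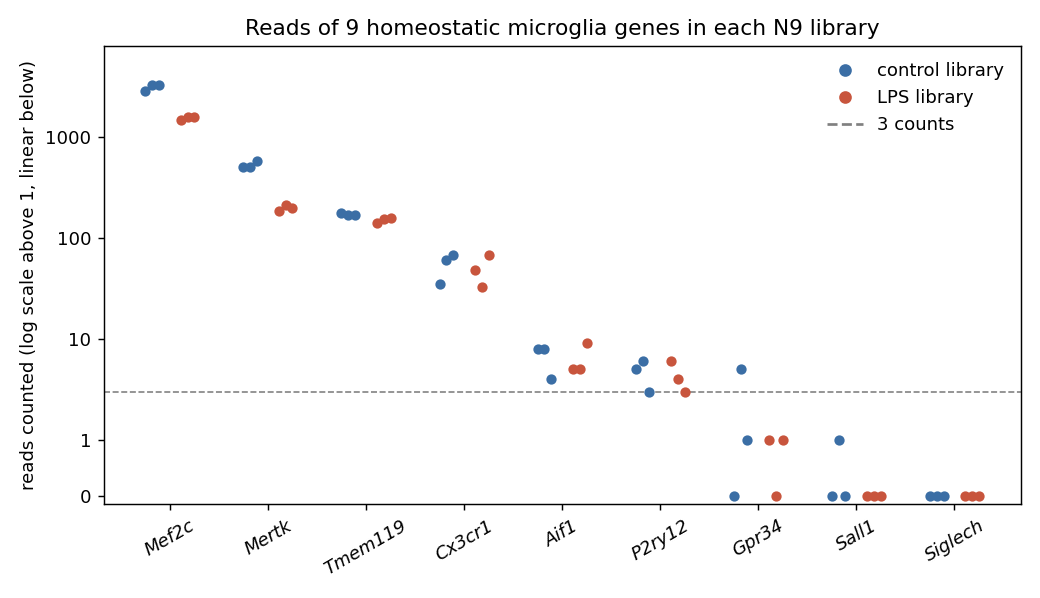
Reads counted for each of the 9 genes in each library (vertical axis, logarithmic above 1 and linear below), with control libraries in blue and LPS libraries in red, replicates 1 to 3 from left to right, and a dashed line at 3 reads. The blue and red points separate for Mef2c and Mertk, and Siglech is at 0 in all 6 libraries.

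The stretch before the start of transcription is shown for the 2 genes that fell and for 3 of the 5 genes at or near 0, so that both kinds can be compared. RefSeq on GRCm38.p6 gave a promoter for 7 of the 9 genes, in 11 start sites, and each run below is the 250 bases before the first listed start site, 5′ to 3′ on the strand of the gene. Capitals mark matches to a motif searched on both strands: the PU.1 core (GAGGAA), MEF2 (TAAAAATA), the interferon-stimulated response element (GAAANNGAA), kappa B (GGGANTTCC), AP-1 (TGANTCA) and the E-box (CACGTG), where N is any base. Mef2c lies at chr13:83503784-83504033 on the plus strand, Mertk at chr2:128698665-128698914 on the plus strand, Aif1 at chr17:35176053-35176302 on the minus strand, P2ry12 at chr3:59262986-59263235 on the minus strand and Siglech at chr7:55767934-55768183 on the plus strand.
Mef2c: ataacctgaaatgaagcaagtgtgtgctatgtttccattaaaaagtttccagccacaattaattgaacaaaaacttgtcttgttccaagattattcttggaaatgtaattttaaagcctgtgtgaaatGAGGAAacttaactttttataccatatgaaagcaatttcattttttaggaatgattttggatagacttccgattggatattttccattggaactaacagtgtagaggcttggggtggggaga
Mertk: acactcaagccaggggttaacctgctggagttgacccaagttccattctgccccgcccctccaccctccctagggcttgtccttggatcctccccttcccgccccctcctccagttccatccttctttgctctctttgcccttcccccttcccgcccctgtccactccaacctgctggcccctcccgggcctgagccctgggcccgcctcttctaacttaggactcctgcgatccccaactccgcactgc
Aif1: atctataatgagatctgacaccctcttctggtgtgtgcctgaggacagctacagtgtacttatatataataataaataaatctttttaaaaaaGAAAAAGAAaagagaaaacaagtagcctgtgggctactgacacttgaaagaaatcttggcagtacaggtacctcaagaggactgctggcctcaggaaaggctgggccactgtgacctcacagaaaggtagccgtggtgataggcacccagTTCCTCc
P2ry12: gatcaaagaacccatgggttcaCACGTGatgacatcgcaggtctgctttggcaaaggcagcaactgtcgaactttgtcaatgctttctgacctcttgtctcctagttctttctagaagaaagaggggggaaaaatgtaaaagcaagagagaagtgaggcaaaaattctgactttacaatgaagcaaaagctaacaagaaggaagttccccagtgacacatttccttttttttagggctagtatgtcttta
Siglech: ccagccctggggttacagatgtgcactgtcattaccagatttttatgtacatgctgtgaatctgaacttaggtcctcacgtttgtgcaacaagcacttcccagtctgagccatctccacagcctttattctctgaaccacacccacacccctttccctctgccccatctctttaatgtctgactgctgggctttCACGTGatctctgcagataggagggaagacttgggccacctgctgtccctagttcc

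The Mef2c run is poor in G and C, at 33.6%, with 1 CpG, and holds the PU.1 core beginning 122 bases before the start. The Mertk run is richer, at 63.6% with 7 CpG, and holds none of the 6 motifs. Aif1 holds the PU.1 core 7 bases and the interferon-stimulated response element 157 bases before the start. P2ry12 and Siglech each hold an E-box, at 228 and 56 bases before the start. Among all 32851 promoters of the table, 23.3% hold the PU.1 core, 7.13% the interferon-stimulated response element, 6.02% the E-box, 6.75% AP-1, 2.45% MEF2 and 1.43% kappa B in the same window, and the medians are 52.4% G and C and 6 CpG. The other 2 start sites of Mef2c hold the PU.1 core at 186 bases and AP-1 at 137 bases, whereas the Cx3cr1 run and the 3 runs of Sall1 hold none of these motifs. The 3 runs of Sall1 are rich in CpG, with 13, 25 and 30. These matches describe letters in a window and say nothing on binding.

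The level of each gene in untreated cells was compared per length, as CPM (reads scaled to a common library size) divided by the gene length in kilobases that the authors deposited. For the identity genes that length takes in the exons of all annotated transcripts, so that a gene with many transcripts is divided by more bases than a single transcript has. Mef2c had the highest level, 11.2 ± 0.624 CPM per kilobase (SD, n = 3), above 80.4% of the 22046 protein-coding genes of the table. Mertk followed with 6.88 ± 0.316 and Tmem119 with 4.17 ± 0.281 CPM per kilobase, above 73.6% and 67.3% of protein-coding genes. Each of these genes was higher than the next in every control library, and Mef2c exceeded Mertk 1.63-fold and Mertk exceeded Tmem119 1.65-fold.

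Cx3cr1 came next at 0.678 ± 0.195 CPM per kilobase, 6.15-fold below Tmem119. Aif1 had 0.247 ± 0.0925 and P2ry12 0.104 ± 0.0363 CPM per kilobase. These 3 genes were above 54.7%, 51.1% and 48.2% of protein-coding genes. Such shares include the many protein-coding genes with 0 reads: Sall1, with 1 read in the control libraries, was still above 34.8%. The lowest control library for Aif1 and the highest for P2ry12 lay close, at 0.14 and 0.134 CPM per kilobase, which rest on 4 reads and 6 reads.

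At the bottom, Gpr34 had 0.0538 ± 0.072 and Sall1 0.00359 ± 0.00622 CPM per kilobase in control cells, and Siglech had none. P2ry12 and Gpr34 overlapped between libraries, as did Gpr34 and Sall1 and Sall1 and Siglech, so that these neighbours do not differ beyond their spread. P2ry12 was above Sall1 and Siglech in all 3 control libraries, on 3 to 6 reads. In LPS cells Mef2c had 6.03, Tmem119 4.01, Mertk 2.80 and Cx3cr1 0.676 CPM per kilobase, which puts Tmem119 above Mertk.

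**Figure D2:**
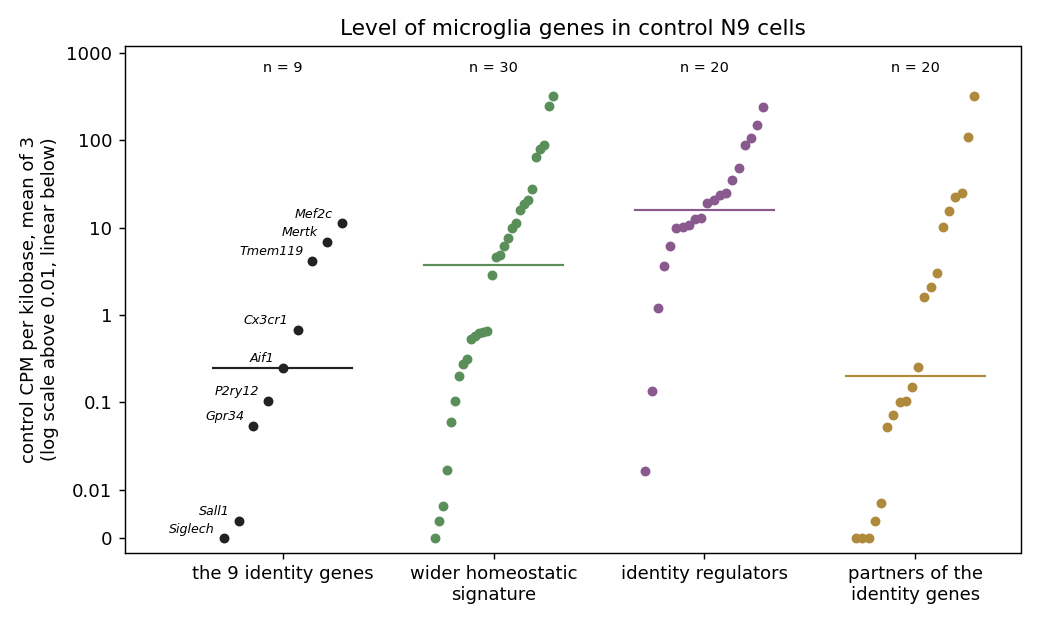
Mean level in the 3 control libraries in CPM per kilobase of gene length (vertical axis, logarithmic above 0.01), with 1 point per gene for the 9 identity genes and 3 wider lists, genes in order of level and a line at the median of each list. The 9 identity genes run from 0 for Siglech to 11.2 for Mef2c with a median of 0.247, against medians of 3.74 for the wider signature, 15.9 for regulators and 0.201 for partners.

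Changes with LPS were tested with edgeR over the 12296 genes that passed a filter on low counts, with Benjamini-Hochberg adjustment over all of them. A gene with an adjusted p under 0.05 was called, and it was also a differentially expressed gene (DEG) when its log2 fold change passed 1.5 in size. Of the 9 identity genes 4 passed the filter and 2 were called lower, beside 15.7% of all tested genes called lower. None of the 4 tested genes was called higher, beside 18.7% of tested genes, and 34.3% of tested genes were called in either direction. At an unadjusted p under 0.05 the number called higher was also 0, and DESeq2 called 0 higher among the 6 identity genes that it tested. No identity gene was a DEG by edgeR or DESeq2, nor by edgeR at an unadjusted p under 0.05, beside 2.65% of the tested genes. The median log2 fold change of the 4 tested identity genes was -0.47, and that of all tested genes was 0.0. In bulk RNA a loss of transcript in every cell and a loss in some of the cells cannot be told apart.

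Mef2c encodes a MADS-box transcription factor that restrains inflammatory responses of microglia. The gene (ENSMUSG00000005583) lies at chr13:83504034-83667080 on the plus strand of GRCm38 and has an exon length of 15715 bases over 31 annotated transcripts. Mef2c had 2835, 3263 and 3294 reads in control libraries and 1464, 1567 and 1574 reads in LPS libraries. On the normalised scale these were 165, 185 and 177 CPM against 92.8, 95.6 and 95.8 CPM. The lowest control library was well above the highest LPS library, beside 45.3% of all tested genes without overlap between the groups.

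The mean of Mef2c went from 176 ± 9.81 to 94.7 ± 1.69 CPM (SD, n = 3), 1.86-fold lower. Its log2 fold change was -0.89 (SE 0.05, 95% interval -1.0 to -0.79, edgeR adjusted p = 2.3e-09). Only 1.64% of tested genes had a lower log2 fold change. With control replicate 1 as the only control, the log2 fold change was -0.80 (SE 0.06, edgeR adjusted p = 7.9e-07). Reads of its 31 transcripts were counted together, so that the data give no value for a single isoform.

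Mertk encodes a receptor tyrosine kinase through which microglia engulf apoptotic cells. The gene (ENSMUSG00000014361) lies at chr2:128698956-128802894 on the plus strand, and the genes Gm14011 and Gm23172 within its span had 0 reads in every library. Mertk had 510, 503 and 581 reads in control libraries and 184, 210 and 196 reads in LPS libraries. These were 29.8, 28.5 and 31.3 CPM against 11.7, 12.8 and 11.9 CPM. The groups were far apart beside the spread within each.

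The mean of Mertk went from 29.8 ± 1.37 to 12.1 ± 0.598 CPM (SD, n = 3), 2.46-fold lower, the larger of the 2 falls. Its log2 fold change was -1.30 (SE 0.09, 95% interval -1.49 to -1.11, edgeR adjusted p = 2.1e-08), and 0.512% of tested genes had a lower one. With control replicate 1 as the only control it was -1.29 (SE 0.13, edgeR adjusted p = 7.3e-06). The interval of Mertk stays short of -1.5, so that its fall was below the size set for a DEG.

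Tmem119 encodes a transmembrane protein that is widely used to stain microglia against infiltrating macrophages. The gene (ENSMUSG00000054675) lies at chr5:113793729-113800516 on the minus strand, and no other gene of the table overlaps it. Tmem119 had 177, 169 and 168 reads in control libraries and 142, 153 and 156 in LPS libraries. In CPM these were 10.3, 9.58 and 9.04 against 9.0, 9.33 and 9.50, so that the groups overlapped once library size was taken into account. The log2 fold change was -0.06 (SE 0.12, 95% interval -0.31 to 0.19, edgeR adjusted p = 0.758), which as a ratio allows 0.809 to 1.14. The fold changes of Mertk and Mef2c lie outside this interval. With control replicate 1 as the only control the log2 fold change was -0.15 (SE 0.17, edgeR adjusted p = 0.58).

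Cx3cr1 encodes the receptor for fractalkine, the chemokine through which neurons restrain microglia. The gene (ENSMUSG00000052336) is drawn at chr9:119901616-120069879 on the minus strand, a span of 168264 bases of which 4505 are exon. Most of its exon lies in blocks of 3661 and 754 bases, while a block of 12 bases at the far end stretches the span over other genes. In all 9 other genes lie at least partly within it, but only 78 exon bases are shared, with Gm33858, which had 0 reads. Cx3cr1 had 35, 61 and 68 reads in control libraries and 48, 33 and 67 in LPS libraries.

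These reads of Cx3cr1 were 2.04, 3.46 and 3.66 CPM against 3.04, 2.01 and 4.08 CPM, with both groups covering the same range. The log2 fold change was -0.01 (SE 0.28, 95% interval -0.62 to 0.60, edgeR adjusted p = 0.986). As a ratio this interval runs from 0.651 to 1.52, wider than that of Tmem119 at the lower depth. Leaving out 1 library at a time moved the log2 fold change between -0.28 and 0.22, so that its sign changed with the library left out. With control replicate 1, the lowest control library for Cx3cr1, as the only control it was 0.58 (SE 0.42, edgeR adjusted p = 0.38).

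**Figure D3:**
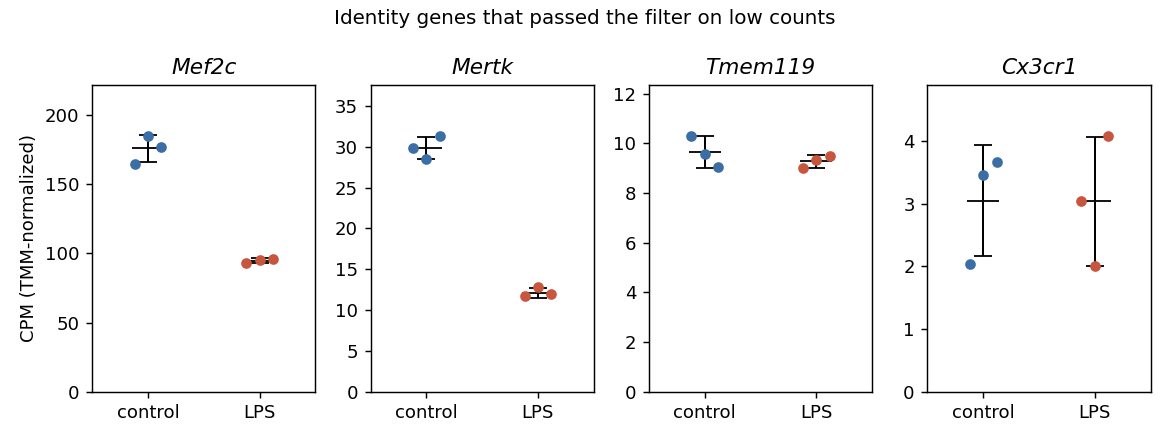
CPM after TMM normalization (vertical axis, from 0) of the 4 identity genes that passed the filter, with 1 point per library, a bar at the mean and whiskers of 1 SD (n = 3). Control and LPS libraries separate for Mef2c (176 against 94.7 CPM) and Mertk (29.8 against 12.1 CPM) and overlap for Tmem119 and Cx3cr1. Of all tested genes, 45.3% had no overlap between the groups.

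Among the genes below the filter, Aif1 encodes Iba1, the actin-binding protein whose antibody is the common stain for microglia. The gene (ENSMUSG00000024397) lies at chr17:35170991-35176068 on the minus strand. Aif1 had 8, 8 and 4 reads in control libraries and 5, 5 and 9 in LPS libraries, with overlapping groups. The ratio of LPS to control was 1.04, with an exact binomial interval from 0.527 to 2.06 that covers counting error only.

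P2ry12, the ADP receptor that steers microglial processes to injury, was similarly low. The gene (ENSMUSG00000036353) lies at chr3:59216272-59262871 on the minus strand inside Med12l, which runs the other way, shares 9 exon bases with it and had between 0 and 2 reads. P2ry12 had 5, 6 and 3 reads in control libraries and 6, 4 and 3 in LPS libraries. The ratio was 1.02, with an exact binomial interval from 0.441 to 2.34. A 2-fold rise lies within both intervals, and a 2-fold fall lies within that of P2ry12 but not within that of Aif1.

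Gpr34, the lysophosphatidylserine receptor, had 0, 5 and 1 reads in control libraries and 1, 0 and 1 in LPS libraries. The gene (ENSMUSG00000040229) lies at chrX:13632089-13640858 on the plus strand within Cask, which is read from the other strand, shares no exon bases with it and had between 290 and 390 reads. Sall1, a zinc-finger factor needed for microglial identity, lies at chr8:89027235-89044162 on the minus strand (ENSMUSG00000031665) and had 1 read in control replicate 2 and 0 elsewhere. Siglech, a sialic acid receptor found on microglia and plasmacytoid dendritic cells, lies at chr7:55768178-55778925 on the plus strand (ENSMUSG00000051504) and had 0 reads in all 6 libraries. For these 3 genes both groups had a mean at or under 3 reads, so that no fold is given. Reads of 0 allow up to 3 counts per library, which was between 0.161 and 0.19 CPM, so that the absence of Siglech holds only down to that level.

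A list of 20 partners of the 9 genes (ligands, paralogs, adaptors and related receptors) shows what N9 cells hold around them. Of the 20 genes 11 passed the filter, 4 were called lower and none higher, beside 15.7% and 18.7% of all tested genes, with a median log2 fold change of -0.11. With 1 library left out between 2 and 4 were called lower. At an unadjusted p under 0.05 the counts were 6 lower and 1 higher, and DESeq2 called 3 lower and 0 higher. Around Mertk, the other 2 receptors of its family were scarce: Axl had 0, 0 and 2 reads in control libraries and 1, 9 and 5 in LPS libraries, and Tyro3 had a log2 fold change of -0.23 (SE 0.38, edgeR adjusted p = 0.69). Per length, Tyro3 and Axl were at 0.148 and 0.00713 CPM per kilobase in control cells, against 6.88 for Mertk.

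Of the ligands that bridge Mertk to dying cells, Pros1 (protein S) fell with it, from 61.8, 65.4 and 62.1 to 47.7, 48.0 and 47.6 CPM, a log2 fold change of -0.40 (SE 0.05, edgeR adjusted p = 3.1e-05). Gas6 was lower by a log2 fold change of -0.61 (SE 0.22, edgeR adjusted p = 0.0418), and this call was lost with DESeq2 (adjusted p = 0.12) and without any of control replicate 2, control replicate 3, LPS replicate 1 or LPS replicate 2 (edgeR adjusted p from 0.093 to 0.14). Mfge8, which bridges dying cells to integrins, had a log2 fold change of -0.12 (edgeR adjusted p = 0.0509).

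In the MEF2 family, Mef2a went from 148, 147 and 150 to 96.3, 94.6 and 94.2 CPM, a log2 fold change of -0.64 (SE 0.04, edgeR adjusted p = 1.8e-08), in the same direction as Mef2c. Mef2d had a log2 fold change of 0.12 (edgeR adjusted p = 0.0515), and Mef2b had between 4 and 11 reads. Whether Mef2c and Mef2d changed differently was not tested.

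Most other partners were low or not called. P2ry13, a related ADP receptor beside P2ry12 on chromosome 3, had 7, 1 and 6 reads in control libraries and 3, 2 and 0 in LPS libraries, and P2ry14 had none. Gnai2, the G protein subunit through which P2ry12 signals, had a log2 fold change of -0.11 (edgeR adjusted p = 0.0433), and leaving out any of 5 libraries ended this call, with adjusted p from 0.058 to 0.14. Cx3cl1, the ligand of Cx3cr1, had between 2 and 6 reads. Tyrobp, the adaptor of Siglech, was abundant at 320 CPM per kilobase in control cells although Siglech itself was at 0, and its log2 fold change was -0.11 (edgeR adjusted p = 0.103). Sall3 had 221, 285 and 250 reads in control libraries and 286, 225 and 252 in LPS libraries, in contrast to the single read of Sall1, and Sall4 and the Aif1 paralog Aif1l were at 0.

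Of 20 regulators of microglial identity, all 20 passed the filter, 8 were called lower and 4 higher, beside 15.7% and 18.7% of all tested genes. Their median log2 fold change was -0.10. The highest levels in control cells were those of Csf1 (241 CPM per kilobase), Cebpb (150) and Spi1 (105). Spi1, which encodes PU.1, rose from 282 ± 10.2 to 424 ± 13.5 CPM, a log2 fold change of 0.58 (SE 0.04, edgeR adjusted p = 5.4e-08), while Mef2c fell. Cebpb, a factor of inflammatory gene expression, rose from 225 to 445 CPM (log2 fold change 0.98, SE 0.04, edgeR adjusted p = 1.2e-10).

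Maf had 2, 5 and 0 reads in control libraries and 30, 15 and 24 in LPS libraries. Its log2 fold change was 3.37 (SE 0.62, edgeR adjusted p = 5.8e-04), resting on few reads, and it was between 2.77 and 4.49 with 1 library left out (4.49 without control replicate 2) and 2.63 with a prior count of 2. Among the regulators called lower were Mef2a, Klf2, Irf8, Cebpa, Bhlhe41, Tgfbr2 and Csf1. These regulators were measured in cells in which Sall1 was near 0.

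**Figure D4:**
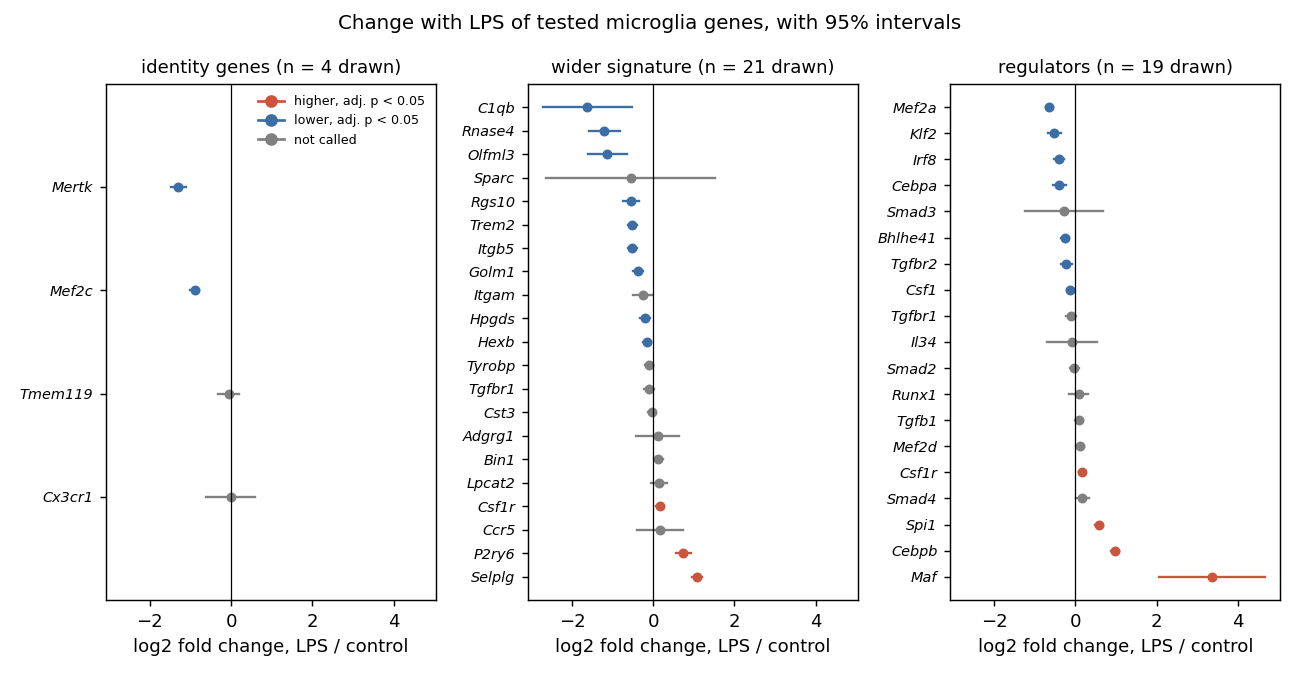
Log2 fold change of LPS against control (horizontal axis) with 95% intervals for the tested genes of the 9 identity genes, the wider signature and the regulators, coloured red where called higher, blue where called lower and grey where not called (1 regulator is not drawn). Mertk and Mef2c lie left of 0, Tmem119 and Cx3cr1 on it, and Selplg and Maf furthest right in their lists.

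A wider homeostatic signature of 30 genes was taken alongside. Of these 21 passed the filter, 9 were called lower and 3 higher, beside 15.7% and 18.7% of all tested genes, with a median log2 fold change of -0.15. The 9 called lower were 6 without LPS replicate 2 and 13 when scaled by total counts alone. Tyrobp, Cst3 (cystatin C) and Csf1r (the CSF1 receptor) were highest, at 320, 244 and 88.3 CPM per kilobase, against 11.2 for Mef2c. Before division by length, Tyrobp had 214 and Mef2c 176 CPM in control cells, over exon lengths of 667 and 15715 bases. Csf1r rose slightly, with a log2 fold change of 0.16 (SE 0.04, edgeR adjusted p = 0.00517) that was 0.06 (adjusted p = 0.23) when scaled by total counts alone.

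Selplg, the P-selectin ligand, rose from 32.8 ± 1.21 to 68.9 ± 1.57 CPM (log2 fold change 1.07, SE 0.06, edgeR adjusted p = 1.4e-09), opposite to Mertk. Rnase4 fell, with a log2 fold change of -1.20 (SE 0.17, edgeR adjusted p = 7.8e-05), as did Olfml3 with -1.13 (SE 0.23, edgeR adjusted p = 0.00116). With control replicate 1 as the only control, Olfml3 had a log2 fold change of -1.04 (SE 0.36, edgeR adjusted p = 0.055). C1qb had 11, 15 and 12 reads in control libraries and 4, 2 and 5 in LPS libraries, and its call (log2 fold change -1.62, SE 0.51, edgeR adjusted p = 0.023) was lost with DESeq2 (adjusted p = 0.12), with no filter on low counts (adjusted p = 0.068), with control replicate 1 as the only control (adjusted p = 0.29) and without any of control replicate 2, LPS replicate 1 or LPS replicate 2 (adjusted p from 0.057 to 0.11). A filter at a mean count of 10 left C1qb untested. Trem2, a lipid receptor chosen for mention after its values were seen, went from 138 to 96.3 CPM (log2 fold change -0.52, edgeR adjusted p = 1.9e-06).

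Other cell types were checked by marker lists. The macrophage and monocyte list summed to between 2468 and 2499 CPM in control libraries and between 3196 and 3360 in LPS libraries. It was led by Cd14 and Cd36, of which Cd14 rose from 1712 to 2621 CPM and Cd36 fell from 580 to 465 CPM. Of the 12 genes 6 passed the filter, 2 (Cd14 and Ms4a7) were called higher and 2 (Cd36 and Adgre1) lower, beside 18.7% and 15.7% of all tested genes. Clec12a and Pf4 were tested and not called. The remaining genes of the list, Ly6c2, Ccr2, Mrc1, Lyve1, Cd163 and F13a1, were below the filter, with at most 12 reads in any library. The plasmacytoid dendritic cell list was led by Bst2 and Irf7, both also interferon-induced genes, and of the 5 genes among 10 that passed the filter these 2 were called higher, beside 18.7% of all tested genes. Of its other genes, Tcf4, Runx2 and Cox6a2 had between 784 and 1042, 238 and 295, and 57 and 87 reads and were not called, and Ccr9, Ly6d and Spib had at most 3 reads in any library. Among brain cells, Olig2, Sox10, Cldn5 and Gad2 had 0 reads in all 6 libraries, but each of these lists also held genes with many reads. The genes with the most reads were Map2 (252 to 432) and Tubb3 (58 to 231) for neurons, Aldoc (1551 to 2053) and Gja1 (1151 to 1279) for astrocytes, Mbp (457 to 672) and Cnp (219 to 256) for oligodendrocytes, and Flt1 (816 to 1264) and Vwf (692 to 844) for endothelium. The neuron list had 3 tested genes, 1 called higher (Tubb3) and 1 lower (Map2). The astrocyte list had 4, 1 called higher (Gja1) and 2 lower (Aldoc and Aldh1l1). The oligodendrocyte list had 2, 0 called higher and 1 lower (Mbp). The endothelial list had 3, 1 called higher (Kdr) and 1 lower (Flt1). Over all tested genes 18.7% were called higher and 15.7% lower. Among the marker lists, Irf7, Kdr, Tubb3 and Ms4a7 rose past the DEG threshold, beside 2.65% of tested genes that were DEG. Their log2 fold changes were 3.97, 2.24, 1.67 and 1.59 (edgeR adjusted p = 6.4e-15, 0.00355, 7.3e-07 and 0.00388). Kdr rests on 12 reads in control and 53 in LPS libraries. Map2 and Flt1 had log2 fold changes of -0.41 and -0.35 (edgeR adjusted p = 0.00221 and 0.00046).

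For the 2 genes that fell, the protein-coding genes with the most similar pattern over the 6 libraries were sought among 9916 tested genes. For Mef2c these were Dennd4a, Arrb1 and Xpr1, with Pearson r of log2 CPM of 0.99957, 0.99937 and 0.99915, and 96 genes were over 0.99. For Mertk they were Ank, Dgkd and Hdac5, with r of 0.99908, 0.99899 and 0.99859, and 100 genes were over 0.99. With 2 groups of 3 libraries that stand apart, the points share the difference between the groups, and r is given as a description.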

How the data were processed

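RNA-seq was done on 3 control and 3 LPS libraries of N9 microglia, grouped by the labels. The authors deposited whole-number read counts per gene for 54532 genes, without normalization. The submitters' processing notes name featureCounts version 1.5.0-p3 and the build mm10, and the aligner, the annotation and the use of strand are not given in the sources used here. The positions and exon lengths of all 9 identity genes equal those of GENCODE M21 on GRCm38. A deposited table of the authors' own comparison, with fold changes, p-values and 18 columns of values per sample, was not used.

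Counts were tested with edgeR version 4.0.16 under R version 4.3.3, in a quasi-likelihood fit of both groups. Library sizes were scaled by TMM, low genes were left out by filterByExpr, and the prior count was 0.125. Benjamini-Hochberg adjustment was over the 12296 genes tested. The standard error is the size of the log2 fold change divided by the square root of F. CPM used TMM-scaled library sizes. For genes below the filter, exact binomial 95% intervals of the ratio of summed counts were computed with scipy version 1.17.1 under Python version 3.11.15. The reads carry no molecular identifiers, so that intervals and floors of 3 counts cover counting error only. Tables and figures used pandas version 2.3.3 and matplotlib version 3.10.9. The test was run on simulated data first.

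The alternatives were DESeq2 version 1.42.0, other size factors, no filter, a filter at a mean count of 10, robust dispersion, a prior count of 2, a replicate block and each library left out. Leaving out control replicates 2 and 3 together was added after the data were seen. The members and lists were chosen with earlier results of these data known. Genes named from a microglia list are those called with an absolute log2 fold change over 1, the 3 with the highest control level per kilobase, and partners of an identity gene. From other marker lists the 2 genes with the most reads are named, as are genes that overlap a member and, for each called member, the 3 protein-coding genes of most like pattern on log2(CPM + 0.5), among those with a mean count from 50. Genes named for other reasons, such as regulators called lower, Trem2, P2ry6, Sparc, C1qa, C1qc, Kdr, Ms4a7, Adgre1, Aldh1l1 and markers listed at or near 0, were chosen after their values were seen.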

Additional observations from a re-analysis of the deposited data

How the results depend on the processing

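Under each alternative listed above with more than 1 control library, 2 of the 9 identity genes were called lower (Mef2c and Mertk). In these fits 0 were called higher and 0 were DEG. In the main fit, 15.7% of all tested genes were called lower and 18.7% higher, and 2.65% were DEG. An edgeR test against a log2 fold change of 1.5 in size (glmTreat) was run for the count of DEG alone, which was 0 identity genes. With 1 library left out, the log2 fold change was between -1.34 and -1.27 for Mertk, -0.95 and -0.86 for Mef2c, -0.11 and -0.02 for Tmem119, and -0.28 and 0.22 for Cx3cr1. Scaling by total counts alone shifted the median log2 fold change of all tested genes by -0.10, and gave -1.40 for Mertk and -0.99 for Mef2c. Among partners, the 4 called lower became 6 when scaled by total counts alone and 5 with RLE size factors and with the replicate block. They became 3 with DESeq2 and between 2 and 4 with 1 library left out. The fit without control replicates 2 and 3 together has 1 control library, which is assumed to vary like the LPS libraries. The 0 partners called higher became 1 (Mef2d) with robust dispersion, with the replicate block and without control replicates 2 and 3 together. The cause was not tested. Over all genes 4221 calls became 3595 with DESeq2, 2832 without control replicates 2 and 3 together and between 3379 and 4081 with 1 library left out.

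The replicate numbers were not taken to pair the libraries, since the labels do not state a pairing. Same-numbered libraries had correlations of their deviations from the group means of 0.131, 0.0484 and 0.0049. Between unlike numbers, control replicate 2 and LPS replicate 3 had 0.0772, and the other pairs were between -0.121 and 0.0115. These small values do not decide whether the libraries were paired. With the replicate block 4474 genes were called, and Mertk and Mef2c had log2 fold changes of -1.30 and -0.89.

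Depth limits what can be said of Aif1, P2ry12, Gpr34, Sall1 and Siglech, since 3 counts are between 0.161 and 0.19 CPM in these libraries. Without the filter on low counts, Gpr34 had a log2 fold change of -1.31 (SE 1.53) and Sall1 of -1.83 (SE 2.26), which rest on 8 reads and 1 read in all and are no measure of change.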

Other observations

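Among genes of the wider homeostatic signature, P2ry6, the UDP receptor linked to uptake by microglia, moved opposite to Mertk. It rose from 17.7 to 29.6 CPM (log2 fold change 0.74, SE 0.08, edgeR adjusted p = 6e-06). P2ry6 was above every control library in 3 of 3 LPS libraries, beside 45.3% of all tested genes without overlap between the groups. Sparc, a matricellular protein gene, had 43, 0 and 20 reads in control libraries and 36, 0 and 3 in LPS libraries, so that replicate 2 of both groups was at 0. Its log2 fold change was -0.55 (SE 0.97, edgeR adjusted p = 0.71), and with 1 library left out it was between -3.6 (without LPS replicate 1) and 0.55 (without control replicate 1). The complement genes C1qa and C1qc were below the filter, with 10, 11 and 8 and with 23, 26 and 9 reads in control libraries, against 0, 3 and 6 and 6, 4 and 7 in LPS libraries. Why these genes vary was not tested.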
